A study of Danio rerio with 2 samples.

Results

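The 10 genes described here encode the major apolipoproteins of the zebrafish (Danio rerio) liver, and were chosen by name from 25939 genes in the deposited table. They are apoa1a, apoa1b, apoa2 and apoa4a of the A group, apoba and apobb.1 of the B group, apoc1 and apoc2 of the C group, and apoea and apoeb of the E group. Poly(A) RNA was sequenced from whole liver of ambp knockout fish and of wild-type fish, and all of these fish were on a high-fat diet. There was 1 library per genotype, labelled ambp ko and WT. The number, age and sex of the fish behind each library, the strain and the nature of the ambp allele were not stated in the labels. The comparison asks how liver expression differs when ambp is lost on this diet.

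Apolipoproteins are the protein part of the particles that carry lipids in plasma. ApoB is a very large protein that cannot leave its particle, and the liver builds very-low-density lipoprotein around it. ApoA-I and apoA-II form the protein coat of high-density lipoprotein, and the small C and E proteins move between particles, where they steer lipoprotein lipase and receptor uptake. Teleost fish carry extra copies of several of these genes, and all groups but the C group have paralogs among the 10 genes.

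The knockout library held 18357856 reads counted on genes and the wild-type library 15659858. The targeted gene ambp, which encodes the precursor of alpha-1-microglobulin and bikunin, had 3085 reads in the knockout library and 50280 in the wild-type library. Levels are given as shares of all counted reads, as CPM after scaling with TMM factors, or, between genes, as the authors' deposited FPKM, which is per length. With 1 library per genotype no difference has a replicate check and no p-value is given. The 95% intervals cover counting error only. The libraries are of whole tissue, so fewer cells of a type and less RNA per cell cannot be told apart.

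Of the 10 genes, 9 carried their symbol in the name table by identifier. The identifier ENSDARG00000042780 is named APOB there, and was taken as apoba because the other 2 apoB identifiers are named apobb.1 and apobb.2 and the RefSeq table of GRCz12tu lists 3 apoB genes. The deposited rows of 7 of the 10 genes had a symbol and 3 (apoa2, apoa4a and apoc2) had none. The deposited symbols did not separate the paralogs, since both apoA-I genes were named apoa1 there and apoea (ENSDARG00000102004) was named apoeb. The deposited counts of 9 of the 10 genes were whole in both libraries, and apoc2 had 66591.01 in the knockout library.

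Counted as shares of reads, the 10 genes together took the same part of both libraries, and the balance among them differed. Their reads were 14.93% of the knockout library (14.91 to 14.94) and 14.93% of the wild-type library (14.92 to 14.95), a ratio of shares of 0.9996 (0.998 to 1.001). The apoB genes held more of the knockout library and apoa1a less, while apoa1b, apoc1 and apoc2 took nearly the same part of both. By reads, apoa2, apoa1b and apoc1 alone made up 78.7% of the reads of the 10 genes in the knockout library and 81.9% in the wild-type library. Per length the same 3 genes were the 3 highest of all genes in both libraries.

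**Figure D1:**
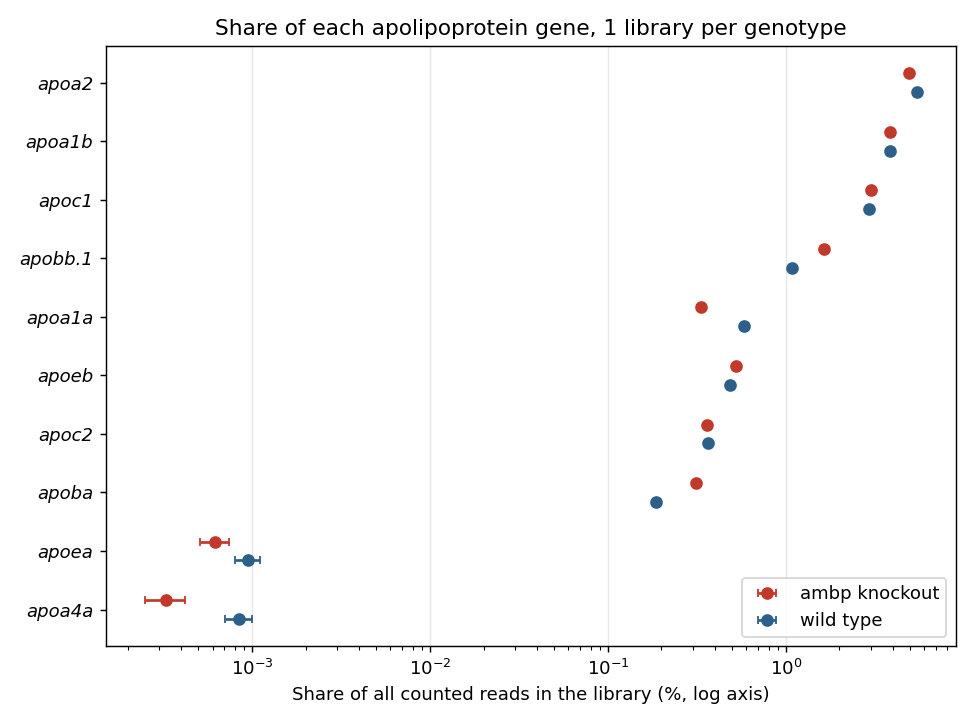
Share of all counted reads held by each apolipoprotein gene (%, log axis) in the ambp knockout library and in the wild-type library, with 95% exact binomial intervals. The apoba and apobb.1 points of the knockout library lie to the right of the wild-type points, those of apoa1a, apoea and apoa4a to the left, and the points of apoa1b, apoc1 and apoc2 nearly coincide.

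A share and a TMM-scaled level do not give the same sign for all of these genes, so both are printed. TMM scaling sets the typical gene to no difference, and the median log2 ratio (knockout over wild type) was -0.003 over 11634 measured genes, those that reached 1 CPM in one library or both. With library totals, the scaling on which shares rest, the median of these genes was 0.21, and the part of genes past 2-fold that were higher was 68.8% in place of 45.7%. Scaling by totals moved each abundant apolipoprotein gene upward by the same amount, and apoc1 and apoeb changed sign with it. Ratios between genes inside a library carry no scaling, and are given below for the paralogs and for apoB over apoA-I.

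By a 2-fold size rule on the log2 scale with a pseudocount of 1 CPM, 0 of the 10 genes were higher in the knockout library and 2 were lower, apoa1a and apoa4a. Of all 11634 measured genes 5.38% were at least 2-fold higher and 6.40% at least 2-fold lower. At 1.5-fold, 0 of the 10 were higher and 3 lower, with apoea added, against 16.4% higher and 17.0% lower over all measured genes. With library totals only apoa4a of the 10 was past 2-fold. All 10 passed the filter of 1 CPM in both libraries. Their median log2 ratio was -0.26, or -0.01 with library totals.

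The median of the 10 genes lay close to that of abundant genes in general. Among the 165 genes at 1000 CPM or more in either library, the median log2 ratio was -0.26 and 112 were below 0. Over all 11634 measured genes 5838 were below 0. The level of 1000 CPM was chosen after the values were seen, and it takes in 8 of the apolipoprotein genes. Those 8 had a median of -0.24, with 6 below 0. With library totals the medians were -0.005 for the 165 genes and 0.02 for the 8. Of the 165 genes, 2 were at least 2-fold higher and 15 at least 2-fold lower.

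**Figure D2:**
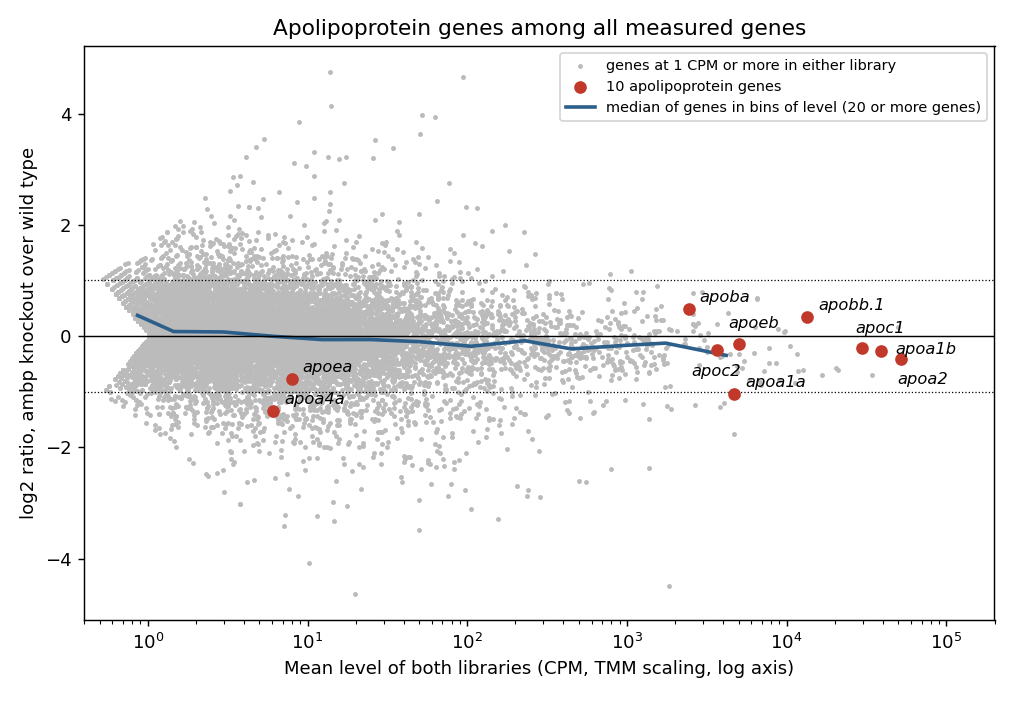
Log2 ratio of the ambp knockout over the wild-type library against the mean level of both (CPM, log axis) for the 11634 measured genes in grey and the 10 apolipoprotein genes in red. The line joins medians of genes binned by level and ends at 4181 CPM, and dotted lines mark 2-fold. The apoba point lies above the line. Past the end of the line, apobb.1 lies at a positive log2 ratio and apoa1a below the lower dotted line.

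ApoA-I is the main scaffold of high-density lipoprotein and the activator of the enzyme that esterifies its cholesterol. The copy apoa1b (ENSDARG00000101324) had 706980 reads in the knockout library and 605991 in the wild-type library. Its share was 3.85% in the knockout library and 3.87% in the wild-type library, rank 3 among all genes in both. The TMM-scaled level was 35266 CPM in the knockout library and 42258 CPM in the wild-type library, a log2 ratio of -0.26 that was -0.01 with library totals. The share of this copy therefore differed by very little between the libraries.

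The other copy, apoa1a (ENSDARG00000012076), had 61617 reads in the knockout library and 91057 in the wild-type library. It was the abundant gene of the 10 that was furthest lower. Its share was 0.336% (0.333 to 0.338) in the knockout library and 0.581% (0.578 to 0.585) in the wild-type library, and its rank among all genes was 47 in the knockout library and 29 in the wild-type library. The level was 3074 CPM in the knockout library and 6350 CPM in the wild-type library, 2.07-fold lower in the knockout (2.04 to 2.09). The log2 ratio was -1.05 with TMM, just past the 2-fold rule, and -0.79 with library totals, which is inside it. Among the 11634 measured genes 676 had a lower log2 ratio. Per length, apoa1a stood at 3446 FPKM in the knockout library and 5970 FPKM in the wild-type library, place 6 and place 4 among the 10 genes.

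The balance of the apoA-I copies needs no scaling between libraries. The apoa1a copy gave 8.02% (7.96 to 8.08) of the reads of the pair in the knockout library and 13.1% (13.0 to 13.1) in the wild-type library. The apoa1a to apoa1b ratio was 0.0872 in the knockout library and 0.150 in the wild-type library, so that the knockout ratio was 0.580 times the wild-type ratio (0.574 to 0.586). Per length, apoa1b stood 9.55-fold above apoa1a in the knockout library and 5.54-fold above it in the wild-type library. Because apoa1b holds most of the pair, the summed share of both copies differed less than that of apoa1a. It was 4.19% of reads in the knockout library and 4.45% in the wild-type library. By TMM the sum was 0.789 times the wild-type value (0.786 to 0.791).

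ApoA-II accompanies apoA-I on high-density lipoprotein and was the most abundant of the 10 transcripts. The gene apoa2 (ENSDARG00000015866) had 897878 reads in the knockout library and 851469 in the wild-type library. Its share was 4.89% (4.88 to 4.90) in the knockout library and 5.44% (5.43 to 5.45) in the wild-type library, which made it the second most counted gene in the knockout library and the most counted in wild type. It was lower in the knockout library under both scalings, with a log2 ratio of -0.41 by TMM and -0.15 by library totals. As a difference in percentage points of the library, its -0.546 was close in size and opposite in sign to the 0.557 of apobb.1. That match holds for reads only, since the apobb.1 message is far longer. Per length, apoa2 stood at 73059 FPKM in the knockout library and 81154 in the wild-type library. The apobb.1 values were 1424 FPKM in the knockout library and 939 in the wild-type library. Relative to both apoA-I copies summed, a ratio that was not planned, apoa2 had 0.956 times the wild-type ratio (0.952 to 0.961).

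ApoA-IV is a lipid-binding protein made mainly by the gut in mammals. The copy apoa4a (ENSDARG00000101160) was barely present in these livers, with 60 reads in the knockout library and 132 in the wild-type library. Its level was 2.99 CPM (2.28 to 3.85) in the knockout library and 9.20 CPM (7.70 to 10.9) in the wild-type library, 3.08-fold lower in the knockout (2.25 to 4.25). Its log2 ratio of -1.35 was the lowest of the 10 genes, and was -0.83 with a pseudocount of 5 CPM, inside the 2-fold rule. It was the least expressed of the 10 per length, at 3.14 FPKM in the knockout library and 8.09 FPKM in the wild-type library.

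Most apoA-IV message came from genes that are not among the 10. The copy apoa4b.1 (ENSDARG00000040298) had 75188 reads in the knockout library and 31221 in the wild-type library, and its log2 ratio was 0.78 with TMM and 1.04 with library totals. The neighbouring copies apoa4b.2 and apoa4b.3 had ratios of -0.43 and -0.36. The knockout library thus had more apoa4b.1 and less apoa4a, and the ratio of apoa4a to apoa4b.1 was 0.189 times that of wild type (0.137 to 0.258). That ratio was not among the planned paralog ratios. It sets a gene of few reads against the only apoa4b copy that was higher. The deposited counts of all 3 apoa4b genes were not whole, paralogs can share reads, and their values are uncertain.

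ApoB is the structural protein of very-low-density lipoprotein. Both apoB genes of the 10 were higher in the knockout library, and they were the only members with positive log2 ratios by TMM. The more abundant copy, apobb.1 (ENSDARG00000022767), had 300719 reads in the knockout library and 169291 in the wild-type library. Its share was 1.64% (1.63 to 1.64) in the knockout library and 1.08% (1.08 to 1.09) in the wild-type library, and its rank was 8 in the knockout library and 13 in wild type. The level was 15001 CPM in the knockout library and 11805 CPM in the wild-type library, 1.27-fold higher (1.26 to 1.28), or 1.52-fold by share. The log2 ratio was 0.35 with TMM and 0.60 with library totals.

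The second copy, apoba (ENSDARG00000042780), had 57033 reads in the knockout library and 29108 in the wild-type library. Its share was 0.311% (0.308 to 0.313) in the knockout library and 0.186% (0.184 to 0.188) in the wild-type library. The level was 2845 CPM in the knockout library and 2030 CPM in the wild-type library, 1.40-fold higher (1.38 to 1.42), or 1.67-fold by share. With a log2 ratio of 0.49 by TMM it was the highest of the 10, and 2381 of the 11634 measured genes were higher still. A further apoB gene, apobb.2, which is not one of the 10, had 18592 reads in the knockout library and 10742 in the wild-type library, with a log2 ratio of 0.31. All 3 apoB genes were thus higher in the knockout library, under TMM and under library totals, and none reached 2-fold.

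Within the apoB pair the balance was nearly kept. The apoba copy gave 15.9% (15.8 to 16.1) of the reads of the pair in the knockout library and 14.7% (14.5 to 14.8) in the wild-type library. The knockout ratio of apoba to apobb.1 was 1.103 times the wild-type ratio (1.086 to 1.120). Per length apobb.1 stood 6.18-fold above apoba in the knockout library and 6.81-fold above it in the wild-type library. ApoB messages are very long, so they weigh far more in reads than in molecules. Both apoB genes together took 1.95% of reads in the knockout library and 1.27% in the wild-type library, but only 0.219% of the summed FPKM in the knockout library and 0.136% in the wild-type library.

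The apoB to apoA-I balance, computed after the values of the single genes were seen, was higher in the knockout library. The reads of apoba and apobb.1 over those of apoa1a and apoa1b gave 0.465 in the knockout library and 0.285 in the wild-type library, so that the knockout ratio was 1.64 times that of wild type (1.63 to 1.65). Per length the ratio was 0.0455 in the knockout library and 0.0276 in the wild-type library, or 22.0 FPKM of apoA-I for each FPKM of apoB in the knockout library and 36.2 in the wild-type library. With apobb.2 added the reads gave 1.63 times, and with apoa1b alone below the line 1.55 times. By library totals the apoB sum was 1.54-fold higher and the apoA-I sum 0.941 times the wild-type value, and by TMM these were 1.29-fold and 0.789 times, so how much of the difference lies on either side depends on the scaling.

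**Figure D3:**
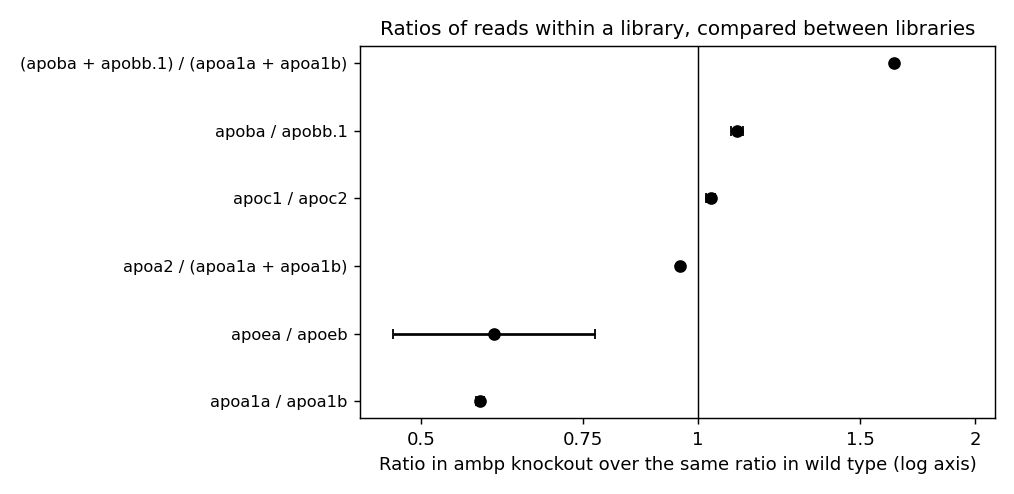
Ratios of reads between genes within a library, given as the ambp knockout ratio over the wild-type ratio (log axis), with exact conditional 95% intervals for counting error. The apoB to apoA-I ratio lies at 1.64, the apoba to apobb.1 and apoc1 to apoc2 ratios near 1, and the apoa1a to apoa1b and apoea to apoeb ratios at 0.580 and 0.601.

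The small C proteins act on triglyceride-rich particles. ApoC-II is the cofactor that lipoprotein lipase needs, and apoC-I restrains lipid transfer and lipase action in mammals. The gene apoc1 (ENSDARG00000092170) had 552920 reads in the knockout library and 458372 in the wild-type library, a share of 3.01% (3.004 to 3.020) in the knockout library and 2.93% (2.92 to 2.94) in the wild-type library, and was the second highest gene of all per length in both. Its log2 ratio was -0.21 with TMM and 0.04 with library totals, so its direction depends on the scaling. The gene apoc2 (ENSDARG00000092155) had 66591 reads in the knockout library and 56985 in the wild-type library, a share of 0.363% in the knockout library and 0.364% in the wild-type library. It was the only gene of the 10 whose ratio of shares, 0.997, had a counting interval that includes 1 (0.986 to 1.01), and its log2 ratio with TMM was -0.26. The ratio of apoc1 to apoc2, which was not planned, was 8.30 in the knockout library and 8.04 in the wild-type library.

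ApoE is the ligand that lets receptors of the low-density lipoprotein family take up particle remnants. The copy apoeb (ENSDARG00000040295) had 96452 reads in the knockout library and 75952 in the wild-type library, and a share of 0.525% (0.522 to 0.529) in the knockout library against 0.485% (0.482 to 0.488) in the wild-type library. Its log2 ratio was -0.14 with TMM and 0.12 with library totals, the second gene of the 10 whose direction depends on the scaling. The deposited FPKM of apoeb differed less than its share, with 3454 FPKM in the knockout library and 3308 FPKM in the wild-type library, because the length that the FPKM implies was 1521 bases in the knockout library and 1466 in the wild-type library. For the other 9 genes the implied lengths of both libraries lay within a few bases of each other.

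The copy apoea (ENSDARG00000102004) had 113 reads in the knockout library and 148 in the wild-type library. Its level was 5.64 CPM (4.65 to 6.78) in the knockout library and 10.3 CPM (8.72 to 12.1) in the wild-type library, 1.83-fold lower (1.42 to 2.36) with a log2 ratio of -0.77. Nearly all apoE message was apoeb, which stood 598-fold above apoea per length in the knockout library and 373-fold above it in the wild-type library. The knockout ratio of apoea to apoeb was 0.601 times that of wild type (0.466 to 0.773), on few apoea reads. With this pair and the apoA-I pair, the minor copy was the one that stood lower relative to its partner in the knockout library, whereas in the apoB pair the minor copy stood slightly higher.

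Per length the order of the 10 genes was nearly kept. The highest in both libraries were apoa2 (73059 FPKM in the knockout library and 81154 in the wild-type library), apoc1 (38664 in the knockout library and 37590 in the wild-type library) and apoa1b (32914 in the knockout library and 33072 in the wild-type library). Below them the knockout library had apoc2 at 4538 FPKM, then apoeb at 3454 and apoa1a at 3446, which are nearly equal. The wild-type library had apoa1a at 5970 FPKM ahead of apoc2 at 4551 and apoeb at 3308. The next were apobb.1 (1424 FPKM in the knockout library and 939 in the wild-type library) and apoba (230 in the knockout library and 138 in the wild-type library). The lowest were apoea and apoa4a, at under 10 FPKM in both libraries, and in wild type the counting intervals of their shares overlap. Together the 10 genes made up 20.8% of the summed FPKM in the knockout library and 21.1% in the wild-type library.

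**Figure D4:**
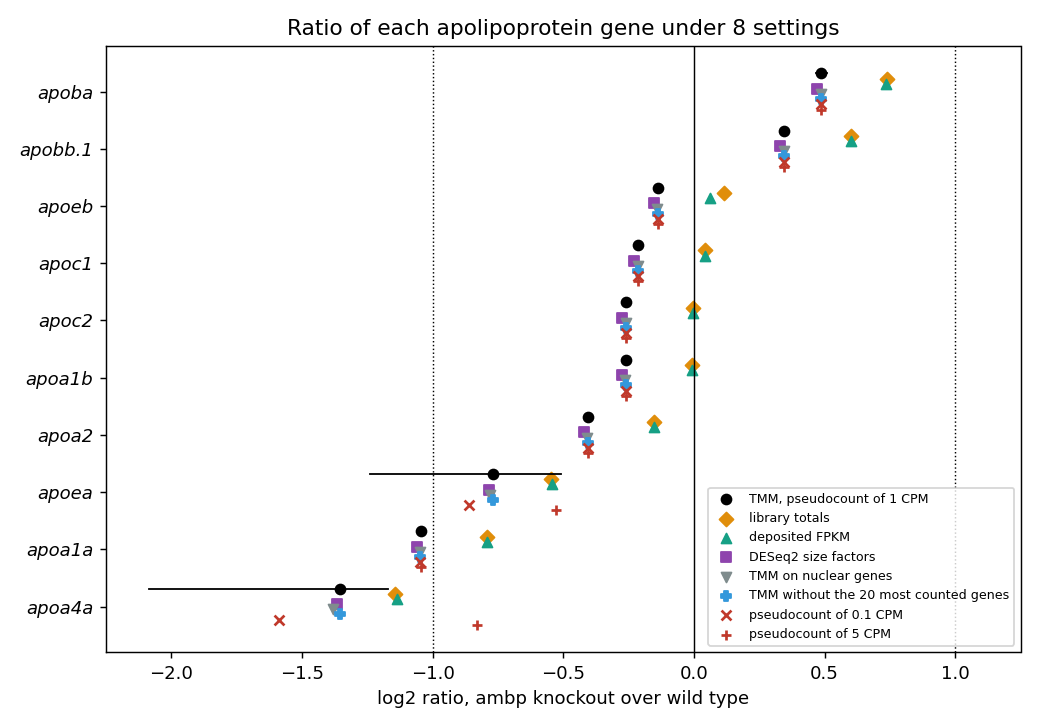
Log2 ratio of the ambp knockout over the wild-type library for each apolipoprotein gene under TMM scaling and 7 other settings, with the counting interval of the fold without pseudocount drawn as a line at the TMM point. The points for library totals and deposited FPKM lie to the right of the others, except for apoa4a and apoea, where the pseudocount of 5 CPM lies furthest right. The points of apoc1 and of apoeb lie on both sides of 0.

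Gene order adds a second grouping that the choice of genes did not use. In the RefSeq table of GRCz12tu, 8 apolipoprotein genes lie within a run of 10 protein-coding genes, in the order apoa4b.1, apoa4b.3, apoa4b.2, apoeb, apoc1, apoc4, apoa2 and apoc2, and 4 of them are among the 10. The table was used for names and neighbours only. Of the 8, apoa4b.1 was higher in the knockout library and the other 7 had log2 ratios from -0.47 to -0.14 with TMM, or from -0.22 to 0.12 with library totals. These ranges take in the median of the 165 genes at 1000 CPM or more, -0.26 with TMM and -0.005 with library totals. The genes apoc4, apoa4b.2 and apoa4b.3 are below that level. As for the apoa4b genes, the deposited counts of apoc4 were not whole. The genes apoa4a and apoea lie next to each other in another place, and were the least expressed of the 10 and both lower in the knockout library. The apoA-I genes do not neighbour each other or any other of the 10, and neither do the apoB genes.

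Other genes with levels like these were sought by distance between log2 CPM values, which here rests on 2 libraries alone. The nearest were bms1 to apoa4a, camk2n2 to apoea, zgc:153921 to apoc2 and adh8a to apoa1a. The level of adh8a was 3217 CPM in the knockout library and 6669 CPM in the wild-type library, beside the 3074 CPM in the knockout library and 6350 CPM in the wild-type library of apoa1a.

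Other genes of the lipoprotein pathway showed a mixture of directions. The lists were chosen with earlier results of these data known, and each count stands beside the 5.38% higher and 6.40% lower over all measured genes. Counts above 0 stand beside 5796 of the 11634 measured genes. A gene below 1 CPM in one library was measured only because it was higher in the other. Over all genes 992 were measured through the knockout library alone, with 241 of the 626 at least 2-fold higher among them, and 692 through the wild-type library alone, with 152 of the 744 lower among them. Of 9 measured other apolipoprotein genes 1 was at least 2-fold higher and 0 lower, and the median log2 ratio was -0.34. The one past 2-fold was a gene named apod (ENSDARG00000060350), on 39 reads in the knockout library and 4 in the wild-type library, and it was measured through the knockout library alone. Without it 0 of the other 8 passed 2-fold. Of 18 measured genes of particle assembly and export, 2 were at least 2-fold higher and 2 lower, with a median of 0.17. Those lower were pdia4 (-1.59) and p4hb (-1.17, or -0.92 with library totals), the partner subunit of the microsomal transfer protein, and those higher were creb3l3a (2.88, on 404 reads in the knockout library and 27 in the wild-type library), a liver transcription factor, and tm6sf2a (1.38). The transfer protein itself, mttp, which loads lipid onto apoB, had 4174 reads in the knockout library and 3230 in the wild-type library. The log2 ratio of mttp was -0.11 with TMM and 0.14 with library totals, so its direction depends on the scaling. The more counted paralog of creb3l3a, creb3l3l, had 1257 reads in the knockout library and 836 in the wild-type library (0.10, or 0.35 with library totals). The most counted gene of the list was pla2g12b, needed for particle expansion, at -0.34. Of these, creb3l3a and pla2g12b are named by rule, and the others were chosen after their values were seen.

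Genes of plasma lipoprotein remodelling had a median log2 ratio of 0.32 over 13 measured genes, with 2 at least 2-fold higher and 2 lower. The list holds enzymes, lipase regulators, lipid transfer proteins and lipid exporters of the cell membrane. Lipoprotein lipase, lpl (ENSDARG00000087697), had 21019 reads in the knockout library and 35848 in the wild-type library (-1.25), and endothelial lipase, lipg, had 241 reads in the knockout library and 732 in the wild-type library (-1.999). Among those higher was abca1b (1.48), on 63 reads in the knockout library and 7 in the wild-type library. The more counted gene named abca1 (ENSDARG00000074635) was lower, with 2025 reads in the knockout library and 2702 in the wild-type library. Its log2 ratio was -0.89, or -0.64 with library totals. With library totals lpl was just inside the 2-fold rule, at -0.999. The gene abca1b was measured through the knockout library alone, and abca1 and abca1b were named after their values were seen. Of 14 measured lipoprotein receptor genes, 2 of them measured through the knockout library alone, 0 were at least 2-fold higher and 1 lower, with a median of -0.03 that was 0.17 with library totals. That gene was ldlra, the receptor that binds apoB and apoE, with 5080 reads in the knockout library and 19012 in the wild-type library.

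Of 27 measured regulators with known apolipoprotein targets 4 were at least 2-fold higher and 1 lower, with 20 above 0 and a median of 0.59. With library totals the median was 0.77. Over all 11634 measured genes 5796 were above 0 by TMM. Of the 27, 3 were measured through the knockout library alone, all above 0, and 1 of these, rxra, is among the 4. The most counted was hnf4a, a nuclear receptor that drives liver apolipoprotein genes in mammals. It had 1158 reads in the knockout library and 1668 in the wild-type library. Its log2 ratio was -0.997, just inside the 2-fold rule, and -0.75 with library totals. A further entry with the deposited symbol hnf4a (ENSDARG00000110427), outside the 27, had 251 reads in the knockout library and 231 in the wild-type library (-0.34). The paralog hnf4b, one of the 27 and named after its values were seen, went the other way, inside the 2-fold rule. It had 897 reads in the knockout library and 422 in the wild-type library (0.59, or 0.84 with library totals). Among those higher were ppargc1b (1.70) and rxra (1.08), rxra on 34 reads in the knockout library and 4 in the wild-type library, and the 1 lower was cebpa (-1.31), all 3 chosen after their values were seen. These regulators are low genes, at 0.0659% of reads together in the knockout library and 0.0499% in the wild-type library.

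The 30 genes of other secreted liver plasma proteins were set beside the apolipoproteins. Together they took 17.2% of reads in the knockout library and 14.6% in the wild-type library, and the 10 apolipoprotein genes took 14.9% of both. That is 1.18-fold for the 30 genes by library totals. By TMM the 30 genes were at 0.992-fold and the 10 apolipoprotein genes at 0.838-fold, so which of these sums differed depends on the scaling. Without transferrin, tfa, the most counted of them, the other 29 took 11.5% of reads in the knockout library and 10.3% in the wild-type library. The median log2 ratio of the 30 genes was 0.07, with 16 above 0, 1 at least 2-fold higher and 0 lower. The gene tfa had 1057343 reads in the knockout library and 671283 in the wild-type library (0.17), and the gene furthest from 0 was hamp (2.201).

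**Figure D5:**
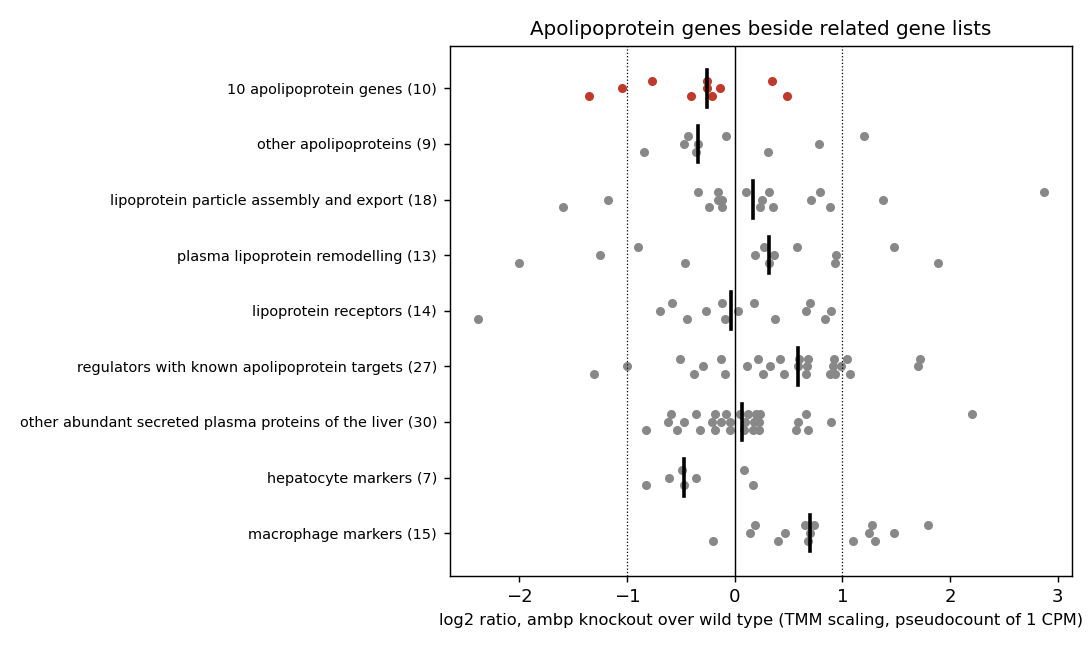
Log2 ratios of the ambp knockout over the wild-type library for the 10 apolipoprotein genes in red and for the measured genes of related lists in grey, with the number measured in brackets and a bar at each median. Dotted lines mark 2-fold, the apolipoprotein bar lies at -0.26 and that of the regulators at 0.59.

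The label of liver was checked against hepatocyte markers. Of these, tfa, serpina1, cp, fgb and ttr are also among the 30 secreted plasma proteins, so the lists are not separate. All 7 hepatocyte markers were measured in both libraries. They took 9.66% of reads in the knockout library and 8.70% in the wild-type library, and their median log2 ratio was -0.47, with 2 above 0. The higher sum rests on tfa, since the other 6 took 3.90% of reads in the knockout library and 4.41% in the wild-type library. The lipid carrier fabp10a had 201101 reads in the knockout library and 219357 in the wild-type library. Mitochondrially encoded genes, which share the denominator of all shares, took 9.47% of reads in the knockout library and 13.2% in the wild-type library.

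Markers of other cell types also differed between the libraries, and their part in the results was not tested. Macrophages make apoE and apoC-I, and 14 of 15 measured macrophage marker genes were above 0, with a median of 0.70 and 6 at least 2-fold higher. Over all 11634 measured genes 5796 were above 0. The 15 hold more than 1 copy each of mfap4 and mpeg1, so they are not all separate markers. The measured mfap4 copies had deposited counts that were not all whole. Of the 15 marker genes, 2 were measured through the knockout library alone, both above 0 and 1 of them among the 6. Their summed share was 0.0596% in the knockout library and 0.0349% in the wild-type library, and of 20 matched marker genes 4 had no read in the knockout library and 5 none in the wild-type library. Enterocytes make apoA-I, apoA-IV and apoB, and 5 of 13 matched enterocyte marker genes were measured, 1 of them through the wild-type library alone, with a median of -0.47. Their summed share was 0.0212% in the knockout library and 0.0262% in the wild-type library, nearly all of it fabp2, and cdx1b had no read in either library. Exocrine pancreas markers took 0.0432% of reads in the knockout library and 0.00296% in the wild-type library, with 8 of 9 at least 2-fold higher. Of these 9, 2 were measured through the knockout library alone, 1 of them among the 8. Erythroid markers took 0.0220% in the knockout library and 0.0343% in the wild-type library, and biliary markers 0.157% in the knockout library and 0.0923% in the wild-type library. The higher biliary sum rests on krt18a.1, with 21345 reads in the knockout library and 7049 in the wild-type library (1.11). The biliary marker anxa4, named after its values were seen, was lower by TMM (-0.47), at 0.0405% of reads in the knockout library and 0.0471% in the wild-type library.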

How the data were processed

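Per the labels' protocols, TRIzol was used on liver, poly(A) RNA was captured on oligo(dT) beads, and a NEBNext Ultra RNA kit made the libraries. The submitters' processing notes name GRCz11, HISAT2 and featureCounts, with neither version nor role. The authors deposited estimated counts per gene, named as counts per the file headers, with non-whole values for 6.01% of knockout and 5.45% of wild-type entries. They also deposited FPKM values. All 4 sample columns were matched.

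Counts were rounded. TMM factors from edgeR 4.0.16 in R 4.3.3 were 1.09 for the knockout and 0.916 for wild type, and DESeq2 1.42.0 gave the alternative size factors. A single read equalled 0.0499 CPM in the knockout and 0.0697 CPM in wild type. Folds used no pseudocount and log2 ratios 1 CPM, so log2 ratios of low genes are too small. Intervals at 95% were exact binomial for shares, exact Poisson for levels and exact conditional for ratios. No test across genes was made, and the size rule was 2-fold. Named were the 10 genes, and from each list the most counted gene and the one furthest from 0. Also named were the 4 genes nearest in level. Names came from an Ensembl table for 23499 of 25939 identifiers. List names without a paralog letter in that table took every gene of that name. The steps were tested on simulated data. The genes and lists were chosen with earlier results of these data known. Sequences of the genes are not used here, and some genes that the rule names are not reported here.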

Additional observations from a re-analysis of the deposited data

How the results depend on the processing

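No paired analysis was possible because there is 1 library per genotype. The log2 ratios of apoa1a, apoa1b, apoa2, apoa4a, apoba, apobb.1, apoc2 and apoea kept their sign in all 7 other settings, while apoc1 and apoeb turned positive with totals (0.04 and 0.12) and with deposited FPKM (0.04 and 0.06). No member was at least 2-fold higher in any setting. Members at least 2-fold lower numbered 1 each with library totals, with 5 CPM as pseudocount and with FPKM, and 0 at 4-fold, against 2. Genes at least 2-fold higher and lower numbered 227 and 433 with a filter of 10 CPM, 1071 and 485 when scaled by totals, 1279 and 1212 with 0.1 CPM as pseudocount, and 151 and 320 with 5 CPM, and 358 were lower with FPKM. That is 68.8% higher among those past 2-fold with library totals, against 45.7%. A filter or a threshold changes which genes can be counted, by its construction; otherwise the cause was not tested. The summed share of the 10 genes was 16.5% in the knockout library and 17.2% in the wild-type library of reads from nuclear genes, a ratio of 0.959. It was 15.06% in the knockout library and 15.09% in the wild-type library of reads from Ensembl genes. Without ambp it was 14.98% in the wild-type library, a ratio of 0.997. An alternative chosen after seeing the data left out the non-members among the 20 most counted genes, 4 of which are members. The summed share was then 19.7% in the knockout library and 20.2% in the wild-type library, a ratio of 0.976. The 3 paralog ratios with FPKM lay inside their counting intervals. The apoB to apoA-I ratio, also chosen after seeing the data, was 1.65 with FPKM and 1.55 with apoa1b alone. Depth limits apoa4a and apoea, which rest on at most 148 reads in a library.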
